A study of Homo sapiens with 12 samples.

Results

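The 10 circadian clock genes described here, out of 17013 genes in the expression table, were the activators CLOCK, BMAL1 and NPAS2, the repressors PER1, PER2, PER3, CRY1 and CRY2, the second-loop receptor NR1D1 and the output gene DBP. Each was found by the Ensembl identifier that GENCODE release 44 pairs with its symbol, and all 10 had a row. The cells were HCC1806, an established triple-negative breast carcinoma line. They were transfected with a pool of siRNAs against MLK4 (siMLK4) or with non-targeting siRNA (siNT). They were then given 1 μM doxorubicin, a topoisomerase II poison, for 24 h, or vehicle. A supplementary legend names the vehicle as DMSO, whereas the sequencing methods call the cells without drug untreated. mRNA was sequenced from 12 libraries, 3 in each of the 4 groups, which hold 16759025 to 19302248 reads over these genes. The transfections were done in triplicate, but no source says that the libraries came from independent cultures, so p-values measure the spread between these samples only.

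The vertebrate circadian clock is a feedback loop of transcription factors that runs in most cells, including cultured ones. CLOCK, or its paralogue NPAS2, pairs with BMAL1 and binds E-box elements in the promoters of the period (PER) and cryptochrome (CRY) genes, whose proteins return to the nucleus and block the pair. In a second loop, nuclear receptors of the ROR family activate BMAL1 through ROR response elements, and NR1D1 (REV-ERBα) represses it through those elements. DBP, itself an E-box target, carries the rhythm to output genes through D-box elements. Clock proteins also touch the DNA damage response, and CRY1 and CRY2 are relatives of the light-driven DNA repair enzymes called photolyases.

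Clock genes need particular care with time. Sample titles mark the vehicle libraries as time 0 and the doxorubicin libraries as 24 h, whereas the series' design text gives the duration for both treatments. If the titles give harvest times, the drug and the time since transfection cannot be told apart. No step that aligns the clocks of the cells is described in the sources used here, and each group was harvested at 1 time. A shift in phase and a change in mean level therefore cannot be told apart. In bulk RNA, fewer cells that express a gene and less RNA per cell cannot be told apart either.

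The siRNA target was checked first. MAP3K21, the gene that encodes MLK4 (ENSG00000143674, chr1:233327724-233385148, plus strand), held 553, 670 and 674 normalized reads in siNT cells with vehicle and 758, 856 and 772 with doxorubicin. After MLK4 depletion the values were 103, 94.7 and 88.7 with vehicle and 113, 138 and 94.4 with doxorubicin. Normalized reads are reads divided by the size factor of the library. Every siMLK4 library lay below every siNT library, and the log2 fold change was −2.24 ± 0.12 (SE) with vehicle and −2.37 ± 0.12 with doxorubicin.

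The labelled cell type was checked on marker genes. All 8 basal keratin, p63 and related markers were in the table, and their summed level, led by KRT5, was 69994 to 83269 normalized reads in siNT vehicle, 40714 to 45803 in siNT doxorubicin, 56465 to 63794 in siMLK4 vehicle and 23927 to 25508 in siMLK4 doxorubicin libraries. ESR1 ranged from 36.0 to 148 normalized reads, and PGR was at 0 in all 6 vehicle libraries and between 7.26 and 18.5 with doxorubicin. ERBB2, the most abundant of these 3 receptors, ranged from 1272 to 2027. The summed luminal factors GATA3 and FOXA1, led by GATA3, were at 1421 to 1700 in siNT vehicle, 1961 to 2339 in siNT doxorubicin, 2144 to 3265 in siMLK4 vehicle and 2591 to 2900 in siMLK4 doxorubicin libraries. Of 5 fibroblast markers, COL1A1 and PDGFRB were in the table, with summed levels led by COL1A1 of 257 to 336 in siNT libraries and 348 to 601 in siMLK4 libraries. Among 3 leukocyte markers, PTPRC and CD14 were present, led by CD14, at 12.9 to 36.8 summed normalized reads with vehicle and 38.7 to 64.2 with doxorubicin, and neither of the 2 endothelial markers was present. The basal sum thus moved with the drug and with the siRNA, and the part of these marker levels in the clock gene results was not tested.

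The pool held 4 siRNAs, and they are shown because an siRNA could act on a clock transcript through its seed. The sense strands are written 5′ to 3′, with capitals on the 7 bases that match the site paired by bases 2 to 8 of the guide strand.
Pool member 1: ggaaagaugcuCAGAGAGauu
Pool member 2: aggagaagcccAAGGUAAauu
Pool member 3: agaagaaacgaGAGGGAAuuu
Pool member 4: agaacagauugCAAAGAAauu
Without their last 2 bases, all 4 were found in the MAP3K21 transcript. In canonical 3′ untranslated regions, CLOCK held 1 site of pool member 3 and 3 sites of member 4, BMAL1 held 1 of member 4, CRY2 held 1 of member 1 and 1 of member 3, and PER1 held 1 of member 1. NPAS2, PER2, PER3, CRY1, NR1D1 and DBP held none. Of the 13583 genes of the table with such a region, 44.3% held at least 1 of the 4 sites. A match of letters is a description and not a site of action.

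Promoters were read because the loop works through short DNA elements. The RefSeq windows (GRCh38.p14) run from 250 bases before to 50 bases after the transcript start. They were searched on both strands for the E-box CACGTG, the D-box forms TTACGTAA and TTATGTAA, the ROR element core TAGGTCA or TGGGTCA, and the cAMP response element TGACGTCA. No 2 of these motifs overlapped in a member's window. The 4 members with a match are shown with 30 bases each, the motif in capitals, read along the strand of the gene.
BMAL1, ROR element core: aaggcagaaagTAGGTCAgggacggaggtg
PER1, E-box: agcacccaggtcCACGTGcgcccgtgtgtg
PER2, D-box: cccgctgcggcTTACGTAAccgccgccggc
PER3, D-box: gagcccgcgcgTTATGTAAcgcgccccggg
The BMAL1 stretch lies at chr11:13277809-13277838 on the plus strand, with the motif 31 bases into the transcript. The PER1 stretch lies at chr17:8152560-8152589 on the minus strand, and its E-box begins 173 bases before the start. For PER2 the stretch is chr2:238288595-238288624 on the minus strand, and its D-box begins 3 bases before the start. For PER3 it is chr1:7784103-7784132 on the plus strand, with the D-box 177 bases before the start. Among the 12030 promoters of genes in the table, 9.86% held the E-box, 0.58% a D-box form, 4.21% the ROR element core and 3.15% the cAMP response element. The windows of CLOCK, NPAS2, CRY1, CRY2, NR1D1 and DBP held none of these letters, which says nothing of elements farther away or of other spellings.

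Doxorubicin went with higher BMAL1 and CRY1 in both siRNA backgrounds. PER3 was lower with the drug, at 0.497 and 0.558 times the vehicle mean in siNT and siMLK4 cells. That difference was less stable than those of BMAL1 and CRY1 when single libraries or the scaling were changed. BMAL1 was 3.24-fold and 5.22-fold higher in the siNT and siMLK4 means, and CRY1 was 1.88-fold and 2.4-fold higher. NR1D1 was 2.16-fold higher in siMLK4 cells and 1.27-fold higher in siNT cells. The siNT difference did not reach an adjusted p of 0.05 in the main fit, and nor did the difference between the responses. Depletion of MLK4 went with NPAS2 at 0.393 and 0.387 times the siNT mean and with DBP at 2.26 and 2.23 times, with vehicle and with doxorubicin. The plot of levels by library gives every value behind these statements.

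**Figure D1:**
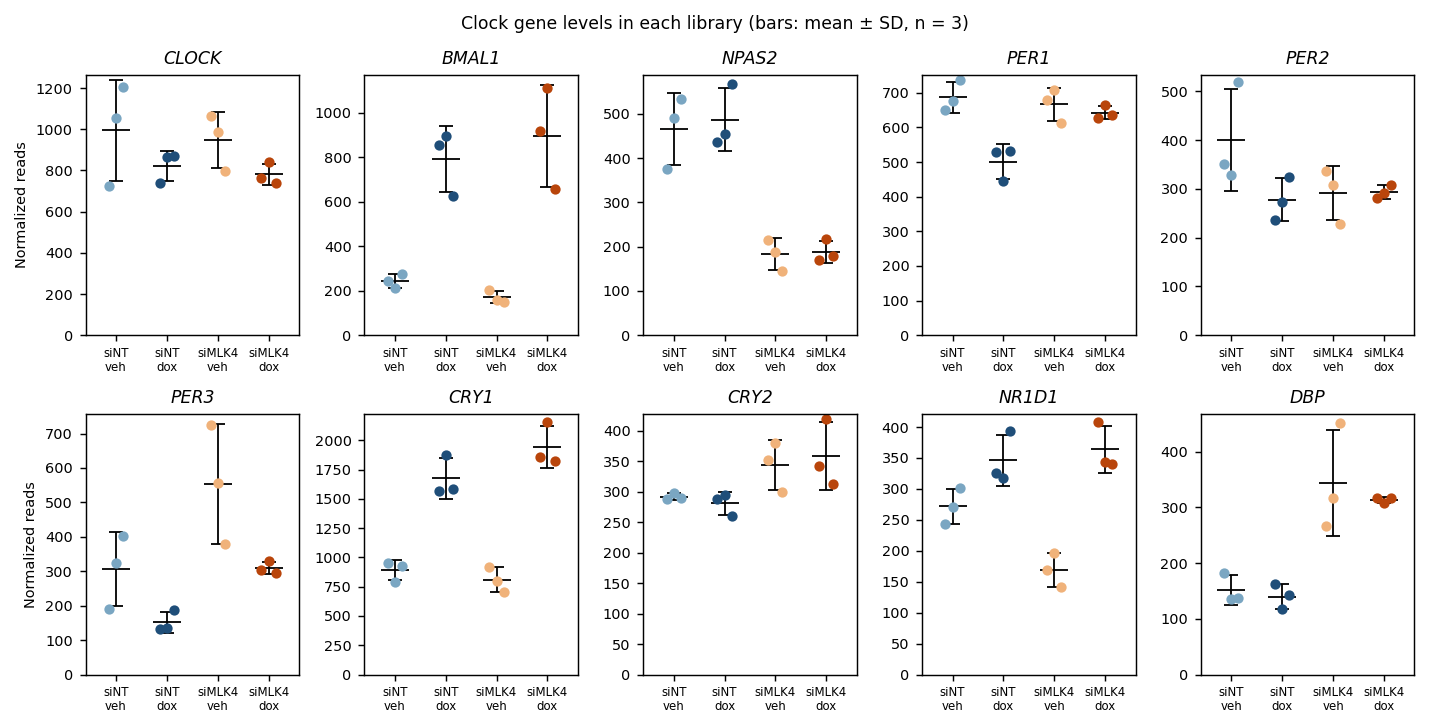
Normalized reads (linear axes from 0) of the 10 clock genes in each of the 12 libraries, with points for libraries and bars for the mean ± SD of 3. BMAL1 and CRY1 separate by drug, NPAS2 and DBP separate by siRNA, and the vehicle libraries of PER3 are spread from 191 to 403 in siNT and from 378 to 726 in siMLK4 cells.

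The tests use a pair of rules. A gene is called at an adjusted p under 0.01 with an absolute log2 fold change over 0.75, and "rose" or "fell" needs an adjusted p under 0.05, both from limma over all 17013 genes. Fold changes are differences of variance-stabilized log2 values with their standard errors, and folds and ratios of means are from normalized reads. The drug moved much of the transcriptome: in siNT cells 12.1% of all genes were called higher, 10.6% were called lower and 57.3% passed an adjusted p of 0.05. In siMLK4 cells these shares were 12.6%, 10.6% and 57.9%. Of the clock genes, 2 were called higher and 1 lower in siNT cells, 3 higher and 0 lower in siMLK4 cells, and 5 and 4 of 10 passed 0.05, a share near the background. Their median log2 fold change was −0.07 and 0.03, against 0.0 and 0.02 over all genes.

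Scaling moved these shares. With library totals in place of size factors, the median of all genes shifted to 0.18 in siNT and 0.16 in siMLK4 cells, and 72.3% and 69.3% of the called genes were higher, against 53.4% and 54.4%. With upper-quartile scaling the siNT share was 63.6%. For siMLK4 against siNT, library totals gave 64.7% higher with vehicle and 61.2% with doxorubicin, against 44.4% and 47.6%, and upper-quartile scaling gave 57.5% with vehicle. The calls of BMAL1, CRY1, NR1D1, NPAS2 and DBP stood under both scalings, and that of PER3 with the drug in siNT cells was lost under both. Library totals added a PER3 call for siMLK4 against siNT with doxorubicin (0.93, adjusted p = 0.0085).

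Replicates were uneven in the vehicle groups. The chi-square per degree of freedom between 2 libraries of a group ran from 7.01 to 63.7, highest between replicates 1 and 3 of siMLK4 vehicle, followed by replicates 1 and 3 of siNT vehicle at 56.8. In no pair did the reads agree within sampling noise, so no library was treated as a copy. Coefficients of variation were highest for PER3 (34.9%), PER2 (26.1%) and CLOCK (24.6%) in siNT vehicle, and for PER3 (31.5%), DBP (27.7%) and NPAS2 (19.5%) in siMLK4 vehicle.

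BMAL1 (ENSG00000133794, chr11:13276652-13387266, plus strand), the shared partner of the activator pair, gave the largest drug response of the 10. Its siNT libraries held 245, 214 and 275 normalized reads with vehicle and 858, 898 and 625 with doxorubicin. In siMLK4 cells they held 203, 160 and 151 with vehicle and 918, 1112 and 657 with doxorubicin. No vehicle library came near a doxorubicin library, and replicate 3 was the lowest with the drug in both backgrounds. The log2 fold change was 1.5 ± 0.18 in siNT cells (adjusted p = 8.8e-06, limma) and 2.07 ± 0.18 in siMLK4 cells (adjusted p = 6.4e-07), and both calls held in 12 of 12 fits that left out 1 library. Between the siRNAs, BMAL1 differed by −0.42 ± 0.18 with vehicle (adjusted p = 0.1), where the groups did not overlap, and by 0.15 ± 0.18 with doxorubicin (adjusted p = 0.58). Neither difference passed.

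CLOCK (ENSG00000134852, chr4:55427903-55546909, minus strand), the DNA-binding partner of BMAL1 with histone acetyltransferase activity, gave no change that passed. Levels were 726, 1055 and 1205 normalized reads in siNT vehicle, 740, 863 and 869 in siNT doxorubicin, 1062, 989 and 799 in siMLK4 vehicle and 765, 839 and 740 in siMLK4 doxorubicin libraries. All 4 groups overlapped. The drug difference was −0.23 (95% interval −0.57 to 0.11) in siNT and −0.26 (−0.60 to 0.08) in siMLK4 cells on the log2 scale.

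NPAS2 (ENSG00000170485, chr2:100820139-100996829, plus strand), the paralogue that can stand in for CLOCK, followed the siRNA and not the drug. The siNT values were 376, 490 and 533 normalized reads with vehicle and 437, 455 and 568 with doxorubicin. The siMLK4 values were 215, 189 and 145 with vehicle and 169, 217 and 180 with doxorubicin. The highest siMLK4 library stood well below the lowest siNT library. NPAS2 fell by 1.15 on the log2 scale with vehicle (SE 0.15, adjusted p = 0.00011, limma) and by 1.17 with doxorubicin (SE 0.15, adjusted p = 0.00012), and both calls held in 12 of 12 leave-one-out fits. Its drug differences were 0.06 (95% interval −0.27 to 0.39) and 0.04 (−0.29 to 0.37) in siNT and siMLK4 cells. Calls were much rarer between siRNAs than with the drug: 3.14% of all genes were called lower in siMLK4 cells with vehicle and 2.93% with doxorubicin, 2.51% and 2.66% were called higher, and 25.8% and 24.8% passed an adjusted p of 0.05. Of the 10 clock genes, 1 was called lower and 1 higher in each of these comparisons, and 4 passed 0.05 in each. The median log2 fold change of the 10 was −0.09 with vehicle and 0.18 with doxorubicin, against 0.01 and 0.02 over all genes.

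**Figure D2:**
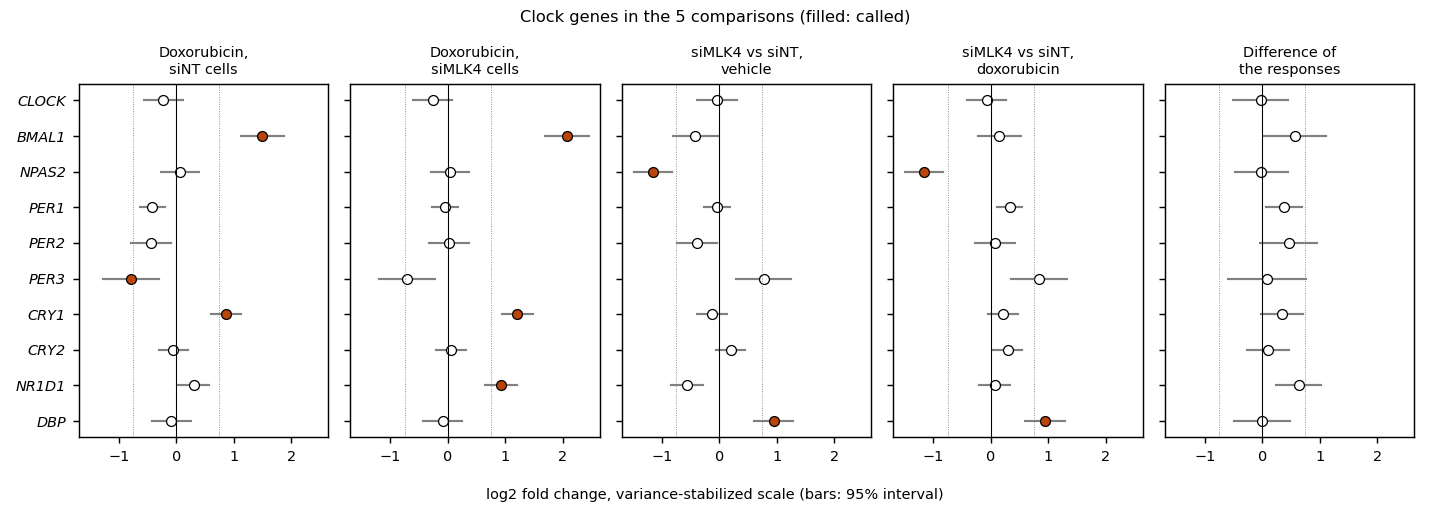
log2 fold changes (variance-stabilized scale) of the 10 clock genes in the 4 comparisons, and the difference between the 2 drug responses in the last panel, with 95% intervals from limma. Filled points were called and dotted lines mark 0.75 in either direction. BMAL1 and CRY1 were called with the drug in both backgrounds, NPAS2 and DBP between the siRNAs under both treatments, and no point in the last panel is filled.

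The period genes encode the repressors that shuttle with the cryptochromes. By the rule above, PER1, PER2 and PER3 all fell with the drug in siNT cells, with the limits given for each below. In siMLK4 cells PER3 fell, and PER1 and PER2 did not pass. PER1 (ENSG00000179094, chr17:8140472-8156506, minus strand) had 649, 675 and 738 normalized reads in siNT vehicle and 528, 444 and 532 in siNT doxorubicin libraries, and 678, 708 and 614 in siMLK4 vehicle and 628, 664 and 637 in siMLK4 doxorubicin libraries. Its 3 siNT doxorubicin libraries were the lowest of the 12. PER1 fell by 0.42 with the drug in siNT cells (SE 0.1, adjusted p = 0.0032), while the difference in siMLK4 cells was −0.05 (adjusted p = 0.71). With doxorubicin it was 0.33 ± 0.1 higher in siMLK4 than in siNT cells (adjusted p = 0.03). That difference did not pass without siNT doxorubicin replicate 2 (0.26, adjusted p = 0.14) or without any 1 of the siMLK4 doxorubicin libraries (0.35, 0.31 and 0.34, adjusted p = 0.079, 0.093 and 0.054). With library totals the drug difference in siNT cells was −0.2 (adjusted p = 0.12), and no longer passed. An annotated protein-coding gene on the same strand, ENSG00000263620, covers 5691 bases of PER1 and has no row in the table, and the effect of that overlap on the PER1 counts was not tested.

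PER2 (ENSG00000132326, chr2:238244044-238290102, minus strand) had 352, 328 and 520 normalized reads in siNT vehicle, 237, 273 and 325 in siNT doxorubicin, 336, 309 and 229 in siMLK4 vehicle and 281, 291 and 309 in siMLK4 doxorubicin libraries. The siNT vehicle libraries were above those with the drug by as little as 328 against 325. PER2 fell by 0.44 with the drug in siNT cells (SE 0.16, adjusted p = 0.034), and without single libraries the difference ranged from −0.55 to −0.26. It did not pass without siNT vehicle replicate 3 (−0.26, adjusted p = 0.17), siNT doxorubicin replicate 1 (−0.35, adjusted p = 0.13) or siNT doxorubicin replicate 2 (−0.43, adjusted p = 0.078). With library totals it was −0.23 (adjusted p = 0.25) and with upper-quartile scaling −0.33 (adjusted p = 0.083), so it did not pass there. In siMLK4 cells the difference was 0.02 (95% interval −0.33 to 0.37).

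PER3 (ENSG00000049246, chr1:7784291-7845177, plus strand), the period gene least needed for the core loop, was the most variable of the 10 within the vehicle groups. It had 191, 323 and 403 normalized reads in siNT vehicle, 133, 135 and 188 in siNT doxorubicin, 726, 555 and 378 in siMLK4 vehicle and 304, 329 and 294 in siMLK4 doxorubicin libraries. In each background the drug group lay below the vehicle group, in siNT cells by as little as 188 against 191. The log2 fold change was −0.78 ± 0.22 in siNT cells (adjusted p = 0.0083, limma), a call that held in 4 of 12 leave-one-out fits. In the other 8 fits the adjusted p was between 0.011 and 0.044, the latter without siNT vehicle replicate 3 (−0.59), and with the replicate number as a block the adjusted p was 0.016. The call was also lost with library totals (−0.59, adjusted p = 0.04), with upper-quartile scaling (−0.69, adjusted p = 0.015), with a minimum of 10 reads in every library and by limma-voom, whose fold was larger (−0.97, adjusted p = 0.01 after rounding). In siMLK4 cells it was −0.71 ± 0.22 (adjusted p = 0.015), and it did not pass without siMLK4 vehicle replicate 1 (−0.5, adjusted p = 0.074) or with library totals (−0.54, adjusted p = 0.054). Between the siRNAs, PER3 rose by 0.77 ± 0.22 with vehicle (adjusted p = 0.022), where the groups overlapped, and by 0.84 ± 0.22 with doxorubicin (adjusted p = 0.014), where they did not. The vehicle difference did not pass without siNT vehicle replicate 1 (0.51, adjusted p = 0.088), siMLK4 vehicle replicate 1 (0.56, adjusted p = 0.092) or siMLK4 vehicle replicate 2 (0.74, adjusted p = 0.064). The doxorubicin difference had an adjusted p of 0.052 without siNT doxorubicin replicate 2. It was called with library totals, with only the doxorubicin groups fitted and in 4 of 12 leave-one-out fits, each without a vehicle library (adjusted p = 0.0039 to 0.0088).

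CRY1 (ENSG00000008405, chr12:106991364-107093549, minus strand), the stronger repressor of the activator pair, had the highest level per length of the 10 in every group. Its siNT libraries held 952, 793 and 928 normalized reads with vehicle and 1566, 1879 and 1587 with doxorubicin. In siMLK4 cells they held 919, 802 and 709 with vehicle and 1858, 2154 and 1821 with doxorubicin. All 6 doxorubicin libraries were above all 6 vehicle libraries. CRY1 rose by 0.87 ± 0.12 in siNT cells (adjusted p = 3.7e-05) and by 1.21 ± 0.12 in siMLK4 cells (adjusted p = 2.3e-06), with both calls in 12 of 12 leave-one-out fits.

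CRY2 (ENSG00000121671, chr11:45847118-45883248, plus strand), the second cryptochrome, did not share this response. It had 288, 298 and 290 normalized reads in siNT vehicle, 288, 294 and 260 in siNT doxorubicin, 352, 380 and 299 in siMLK4 vehicle and 343, 420 and 313 in siMLK4 doxorubicin libraries. Each siMLK4 library was above its siNT counterparts, by as little as 299 against 298 with vehicle. The drug differences were −0.05 (95% interval −0.30 to 0.21) and 0.05 (−0.20 to 0.31) in siNT and siMLK4 cells. The siRNA differences were 0.2 ± 0.12 with vehicle (adjusted p = 0.24) and 0.3 ± 0.12 with doxorubicin (adjusted p = 0.082), and neither passed. With library totals the latter was 0.38 (adjusted p = 0.038), which passed 0.05.

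NR1D1 (ENSG00000126368, chr17:40092793-40100589, minus strand) encodes the nuclear receptor that represses BMAL1. It had 244, 271 and 301 normalized reads in siNT vehicle and 326, 318 and 393 in siNT doxorubicin libraries. In siMLK4 cells it had 169, 196 and 141 with vehicle and 408, 344 and 340 with doxorubicin. The lowest 3 libraries of the 12 were those of siMLK4 vehicle, and the groups with the drug overlapped each other. NR1D1 rose by 0.93 ± 0.13 with the drug in siMLK4 cells (adjusted p = 3.3e-05, limma), called in 12 of 12 leave-one-out fits. The difference was 0.3 ± 0.13 in siNT cells (adjusted p = 0.062) and did not pass. With library totals it was 0.5 (adjusted p = 0.0048) and with upper-quartile scaling 0.4 (adjusted p = 0.013), and passed 0.05 in both. NR1D1 fell by 0.57 with siMLK4 under vehicle (SE 0.13, adjusted p = 0.0052), short of the fold threshold, and differed by 0.07 under doxorubicin (adjusted p = 0.75).

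DBP (ENSG00000105516, chr19:48630030-48637379, minus strand), the D-box activator at the output of the clock, also separated by siRNA. It had 183, 135 and 138 normalized reads in siNT vehicle and 162, 117 and 142 in siNT doxorubicin libraries, and 267, 316 and 451 in siMLK4 vehicle and 316, 307 and 317 in siMLK4 doxorubicin libraries. All 6 siMLK4 libraries were above all 6 siNT libraries. DBP rose by 0.95 ± 0.16 with vehicle (adjusted p = 0.00069) and by 0.94 ± 0.16 with doxorubicin (adjusted p = 0.00074), and both calls held in 12 of 12 leave-one-out fits. When only the vehicle groups were fitted, the adjusted p was 0.018 and the call was lost. The drug differences were −0.09 (95% interval −0.43 to 0.26) in siNT and −0.09 (−0.43 to 0.25) in siMLK4 cells.

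Several members share bases with a gene on the other strand that also has a row: CLOCK with TMEM165, DBP with SPHK2 and NR1D1 with THRA. Counting was stated to use strand. On the same strand as NPAS2, the annotated lncRNA ENSG00000232034 shares 24560 bases with it and has no row. The effect of that overlap on the NPAS2 counts was not tested.

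Whether the drug response differed between siMLK4 and siNT cells was tested as an interaction, and no clock gene passed either rule. Over all genes, 0.276% (47 genes) were called and 1.2% passed an adjusted p of 0.05. Without single libraries 0 to 37 genes were called, with 0 when siMLK4 doxorubicin replicate 1 was left out. NR1D1 had the largest difference at 0.63 ± 0.18 (unadjusted p = 0.0036 by limma, adjusted p = 0.11), followed by BMAL1 at 0.57 ± 0.25 (adjusted p = 0.31). PER1 was at 0.37 ± 0.15 (adjusted p = 0.24). These 3 had an unadjusted p under 0.05, and limma-voom also called 0 of the 10. The median difference over the 10 was 0.22, against 0.01 over all genes. For NPAS2 and DBP, whose siRNA differences were alike under both treatments, the 95% intervals of the interaction ran from −0.48 to 0.44 and from −0.49 to 0.48.

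Ratios of paralogues within a library need no scaling factor. They were compared by 2-sided exact permutation tests over 400 regroupings within siRNA or treatment, with a smallest possible p of 0.005 and adjustment over 8 tests. The log2 ratio of NPAS2 to CLOCK was −1.08 ± 0.12 (SD, n = 3) in siNT vehicle, −0.76 ± 0.15 in siNT doxorubicin, −2.38 ± 0.08 in siMLK4 vehicle and −2.05 ± 0.11 in siMLK4 doxorubicin. It was lower by siMLK4 (difference −1.3, exact p = 0.005, adjusted p = 0.01) and higher with the drug (difference 0.32, exact p = 0.005, adjusted p = 0.01). The second difference arose although neither gene alone passed with the drug.

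The log2 ratio of CRY2 to CRY1 was −1.6 ± 0.17 in siNT vehicle, −2.57 ± 0.12 in siNT doxorubicin, −1.23 ± 0.15 in siMLK4 vehicle and −2.44 ± 0.09 in siMLK4 doxorubicin (SD, n = 3). It was lower with the drug by a difference of −1.09 (exact p = 0.005, adjusted p = 0.01) and higher with siMLK4 by 0.25 (exact p = 0.015, adjusted p = 0.02). Without siMLK4 vehicle replicate 2 the latter was 0.21, with an adjusted p of 0.057 by the exact permutation test.

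PER3 relative to PER1 was lower with the drug (difference −0.62, exact p = 0.015, adjusted p = 0.02) and higher with siMLK4 (0.79, exact p = 0.005, adjusted p = 0.01). PER2 relative to PER1 gave a drug difference of 0.02 (exact p = 0.89) and was lower with siMLK4 (−0.34, exact p = 0.025, adjusted p = 0.029). Without siNT vehicle replicate 3 the latter was −0.26, with an adjusted p of 0.063 by the exact permutation test.

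**Figure D3:**
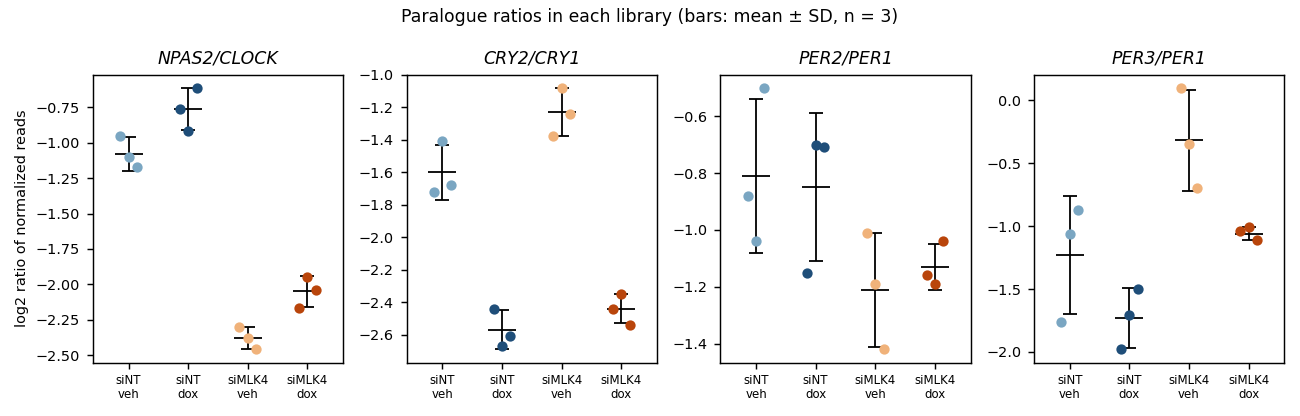
log2 ratio of normalized reads of 4 paralogue pairs in each library, with points for libraries and bars for the mean ± SD of 3. The axes differ between panels and do not start at 0. NPAS2/CLOCK falls into a siNT range of −1.17 to −0.61 and a siMLK4 range of −2.46 to −1.95, and CRY2/CRY1 separates by drug.

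Levels were compared between genes as normalized reads per kb of the Ensembl canonical transcript, which may not be the isoform these cells use. In siNT vehicle cells CRY1 led at 298 ± 28.7 (SD, n = 3), followed by PER1 at 147 ± 9.71, NPAS2 at 116 ± 20.2, NR1D1 at 103 ± 10.8, CLOCK at 95 ± 23.4 and BMAL1 at 87.8 ± 11. From NPAS2 to BMAL1 each neighbour overlapped the next. CRY2 at 70.6 ± 1.32, DBP at 70.1 ± 12.4, PER2 at 62.7 ± 16.4 and PER3 at 48.0 ± 16.8 closed the order, each overlapping the next. With doxorubicin BMAL1 moved from 6 to 2 in this order in siNT cells, at 285 ± 53.0 reads per kb, and from 8 to 2 in siMLK4 cells, at 321 ± 81.9. It then overlapped neither neighbour. CRY1 stayed first at 562 ± 58.6 and 651 ± 61.1. NPAS2 went from 3 in siNT vehicle to the last place in siMLK4 vehicle cells, at 45.6 ± 8.87 reads per kb, where it overlapped PER2. DBP went from 8 in siNT vehicle to 2 in siMLK4 vehicle cells, at 159 ± 44, where it overlapped PER1.

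Genes most like each member were sought by Pearson's r over the 12 libraries among 12906 genes outside the lists. All points share the 4 groups, so a high r can come from group means alone, and r is given as a description. BMAL1 was most like NADK2 (r = 0.993) and CSRNP2 (0.992), and CRY1 most like ADCY1 (0.99) and PTPDC1 (0.987). NPAS2 was most like RAB6A (0.984) and ZNF268 (0.983). DBP followed TMEM98 (0.98) and CRIP2 (0.97), and PER3 followed DIXDC1 (0.987) and CGNL1 (0.985). CLOCK was closest to SEC31A (0.985) and EXOSC10 (0.969), and NR1D1 to SRGAP2C (0.964) and CBFB (0.953). For CRY2 the closest were VSIG10L (0.96) and TAOK2 (0.927), for PER1 ELAVL1 (0.927) and GPSM2 (0.924), and for PER2 PTPN12 (0.941) and PROSER1 (0.931). SRGAP2C has near-identical copies in the genome, so its counts are uncertain.

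The wider clock was covered by 5 lists with 58 genes, of which 53 had a row. With doxorubicin 3 of the 53 were called higher and 10 lower in siNT cells, and 4 higher and 6 lower in siMLK4 cells, beside the shares of all genes given above. With siMLK4, 2 were called higher and 0 lower under either treatment. Among all genes, 2.51% were called higher and 3.14% lower with vehicle, and 2.66% and 2.93% with doxorubicin. In the interaction, 0 of the 53 were called and 0 had an adjusted p under 0.05. The shares of all genes there were 0.276% and 1.2%. With the drug, the 53 had a median log2 change of −0.13 in siNT and −0.01 in siMLK4 cells, against 0.0 and 0.02 over all genes.

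Among the second-loop and output factors, 10 of 13 were in the table. BMAL2, a paralogue of BMAL1, moved opposite to it with the drug. It had 7424, 7790 and 8013 normalized reads in siNT vehicle and 3127, 3528 and 3678 in siNT doxorubicin libraries. In siMLK4 cells it had 5496, 5100 and 4519 against 2790, 3032 and 2888. The drug and vehicle groups did not overlap, and BMAL2 fell by 1.16 (SE 0.1, adjusted p = 8.5e-07) and by 0.78 (SE 0.1, adjusted p = 2.5e-05). Between the siRNAs BMAL2 fell by 0.62 with vehicle (SE 0.1, adjusted p = 0.00074, limma). With doxorubicin that difference was −0.24 (adjusted p = 0.11). TEF, a D-box factor related to DBP, fell by 1.01 in siNT cells (adjusted p = 3.2e-05) and by 0.51 in siMLK4 cells (adjusted p = 0.0057).

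NR1D2 (REV-ERBβ), the paralogue of NR1D1, rose by 0.78 ± 0.15 in siMLK4 cells (adjusted p = 0.00042) and gave 0.35 (adjusted p = 0.054) in siNT cells. RORB, an activator of BMAL1, had 4.01, 0.996 and 5.41 normalized reads in siMLK4 vehicle and 46.6, 65.0 and 16.3 in siMLK4 doxorubicin libraries, a rise by 1.15 on a scale that understates the change of low genes. In siNT cells RORB rose by 0.72 (adjusted p = 0.011), from a mean of 1.53 to 14.5 normalized reads. RORA, its relative, rose by 0.74 in siNT (adjusted p = 0.0039) and by 0.68 in siMLK4 cells (adjusted p = 0.0067), short of the fold threshold on this compressed scale. Its means were 26.0 and 69.5 normalized reads in siNT cells and 21.3 and 58.9 in siMLK4 cells, ratios of 2.68 and 2.77, and limma-voom gave 1.38 (adjusted p = 0.0073) and 1.36 (adjusted p = 0.01). The E-box repressor BHLHE40 fell with the drug in siNT (−0.46, adjusted p = 0.0085) and siMLK4 cells (−0.41, adjusted p = 0.016). Its relative BHLHE41 fell in siNT cells (−0.51, adjusted p = 0.00094) and gave −0.01 (adjusted p = 0.94) in siMLK4 cells. TIMELESS was lower with siMLK4 under vehicle (−0.6, adjusted p = 0.0048) and under doxorubicin (−0.45, adjusted p = 0.024).

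**Figure D4:**
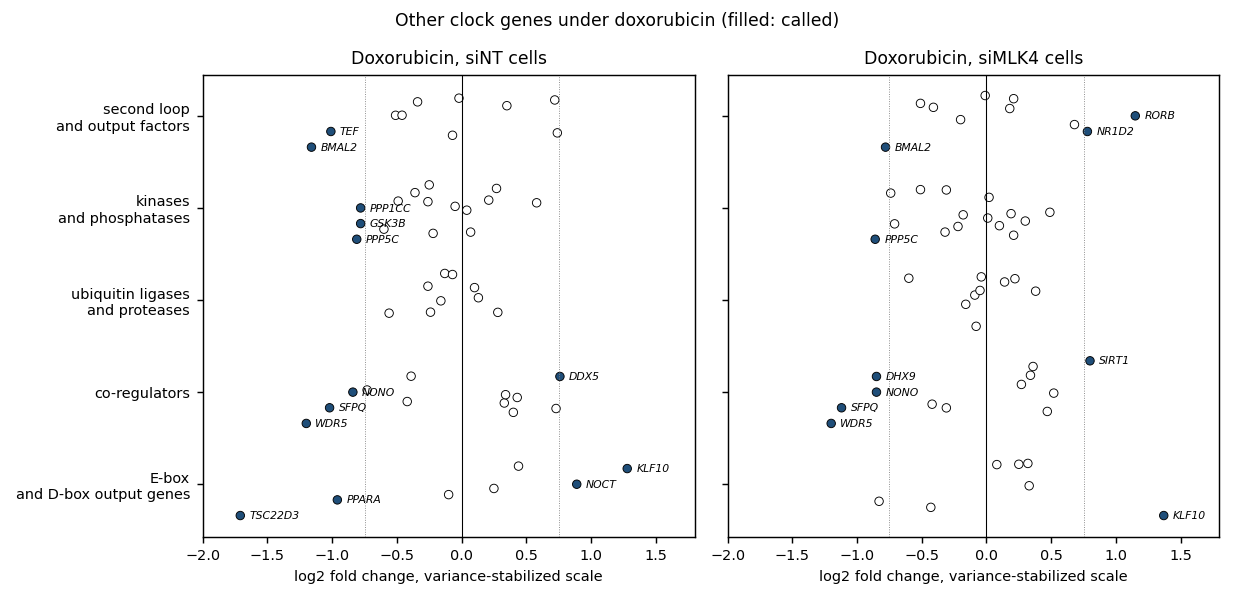
log2 fold changes with doxorubicin (variance-stabilized scale) of the 53 other clock genes in siNT and siMLK4 cells, 1 point per gene in rows by list; vertical scatter within a row has no meaning. Filled, named points were called and dotted lines mark 0.75. Called genes lie on both sides of 0, and 0 of the 9 ubiquitin ligases and proteases were called.

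All 15 kinases and phosphatases that set the speed of the clock were in the table. GSK3B (−0.78, adjusted p = 0.00046), PPP1CC (−0.78, adjusted p = 4.1e-05) and PPP5C (−0.81, adjusted p = 4e-05) were called lower with the drug in siNT cells, and PPP5C (−0.86, adjusted p = 2.5e-05) in siMLK4 cells. PPP1CC (−0.74, adjusted p = 6.6e-05) and GSK3B (−0.51, adjusted p = 0.0086) fell there too, short of the fold threshold. CSNK1D, the casein kinase that marks PER proteins for turnover, gave 0.04 (adjusted p = 0.77) and 0.1 (adjusted p = 0.4). Of the 9 ubiquitin ligases and proteases in the table, 0 of 9 were called with the drug. BTRC, the F-box protein that recognises phosphorylated PER, rose with siMLK4 by 0.81 ± 0.13 with vehicle (adjusted p = 0.00055) and 0.88 ± 0.13 with doxorubicin (adjusted p = 0.00034).

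Of 12 co-regulators, WDR5, SFPQ and NONO were called lower with the drug in both backgrounds. WDR5, a subunit of histone methyltransferase complexes, fell by 1.2 in both backgrounds (adjusted p = 1.2e-06 for siNT, 1.3e-06 for siMLK4). The RNA-binding partners SFPQ and NONO, found with PER complexes, fell by 1.02 and 0.84 in siNT and by 1.12 and 0.85 in siMLK4 cells. The helicase DHX9 was called lower in siMLK4 cells (−0.85, adjusted p = 9.8e-05). DDX5, another helicase, was called higher in siNT cells (0.76, adjusted p = 9.9e-05), and the deacetylase SIRT1 in siMLK4 cells (0.8, adjusted p = 0.00018). In the other background each moved the same way, short of the fold threshold: DHX9 fell by 0.73 (adjusted p = 0.00033) and SIRT1 rose by 0.73 (adjusted p = 0.00037) in siNT cells, and DDX5 rose by 0.52 (adjusted p = 0.0021) in siMLK4 cells.

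Of 8 output genes, 7 were in the table. With the drug KLF10 rose by 1.28 ± 0.11 in the siNT background (adjusted p = 7.7e-07) and by 1.37 ± 0.11 after MLK4 depletion (adjusted p = 4.8e-07), and the deadenylase-related gene NOCT rose by 0.89 in siNT cells (adjusted p = 7.5e-05) and by 0.33 in siMLK4 cells, where the adjusted p lay just under the threshold and rounds to 0.05. NOCT was also lower with siMLK4 under doxorubicin (−0.43, adjusted p = 0.03). KLF11, a relative of KLF10, rose in all 4 comparisons: by 0.44 and 0.32 with the drug in siNT and siMLK4 cells (adjusted p = 0.0032 and 0.022), and by 0.5 and 0.37 with siMLK4 under vehicle and doxorubicin (adjusted p = 0.0042 and 0.022). PPARA (−0.96, adjusted p = 0.0031) and TSC22D3 (−1.71, adjusted p = 0.0021) were called lower in siNT cells, and gave −0.43 (adjusted p = 0.13) and −0.83 (adjusted p = 0.088) in siMLK4 cells. With the replicate number as a block in limma, the TSC22D3 difference in siMLK4 cells passed 0.05 (adjusted p = 0.027). TSC22D3 ranged from 178 to 767 normalized reads among the siNT vehicle libraries. The PPARA call held in 8 of 12 leave-one-out fits and that of TSC22D3 in 11 of 12. WEE1, the kinase that holds cells before mitosis and an E-box target, had 1664, 1535 and 1557 normalized reads in siNT vehicle, 1491, 1571 and 1377 in siNT doxorubicin, 3263, 3369 and 3000 in siMLK4 vehicle and 3880, 3897 and 3731 in siMLK4 doxorubicin libraries. Every siMLK4 library was above every siNT library, and WEE1 rose by 0.99 ± 0.09 with vehicle (adjusted p = 6.4e-06) and by 1.34 ± 0.09 with doxorubicin (adjusted p = 8e-07). With the drug it rose by 0.25 in siMLK4 cells (adjusted p = 0.031) and gave −0.1 (adjusted p = 0.39) in siNT cells. None of these output genes passed the interaction at an adjusted p of 0.05. NAMPT, the enzyme that links the clock to NAD synthesis, fell with siMLK4 by 0.53 with vehicle (adjusted p = 0.004) and by 0.7 with doxorubicin (adjusted p = 0.00061), short of the fold threshold.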

How the data were processed

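The deposited table holds 17013 genes in 12 libraries. Per the supplementary methods and the submitters' processing notes, reads were trimmed by the authors (Trimmomatic 0.39), aligned (HISAT2), cleared of optical duplicates, counted strand-specifically (HTSeq 0.6.0) and processed with DESeq2 1.26.0. The methods name GRCh38 and the notes list hg19. Coordinates here come from GENCODE release 44 (GRCh38) by gene identifier, which matched 16957 genes.

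The values the authors deposited were log2 values after a variance-stabilizing transformation. This was read from the values: inverting it gave whole reads within 0.05 for 100% of values, and size factors of 0.852 to 1.199. The table was already filtered, the lowest value of a gene's highest group mean being 10.67 normalized reads. All members passed.

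limma 3.58.1 (R 4.3.3; lmFit, eBayes with a variance trend) fitted 4 group means to all 12 libraries, with Benjamini-Hochberg adjustment over all genes. Python 3.11.15 gave the rest. The fits were tested on simulated data in which 200 genes per comparison changed by 2 on the log2 scale. For the drug in siNT cells 99% of these were called, and for the interaction 100%. Smaller changes and the uneven spread between the real replicates were not simulated. Alternatives were other scalings, a minimum of 10 reads in every library, a replicate block, limma-voom, log2 with pseudocounts of 1 and 8, no variance trend, fits of only the groups compared and leaving out each library. Named are the 10 clock genes, MAP3K21, genes of the other lists that were called and up to 4 uncalled genes a list by highest level, and the 2 genes most like each member. RORA and CSNK1D were named after their values were seen. The members and lists were chosen with earlier results of these data known.

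Whether same-numbered libraries deviated together varied with the comparison. Their correlations were 0.46, 0.11 and 0.2 for the drug in siNT cells, and 0.19, 0.52 and 0.56 for siMLK4 against siNT with doxorubicin. The correlations were −0.08, 0.18 and 0.34 for the drug in siMLK4 cells. For siMLK4 with vehicle they were −0.72, 0.32 and −0.52, so replicates 1 and 3 deviated in opposite directions there. No label states a pairing, and the values do not show one across all comparisons.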

Additional observations from a re-analysis of the deposited data

How the results depend on the processing

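Of 1040 values of members under an alternative, 961 kept their direction and side of the threshold, 14 lost it, 9 passed it anew and 56 changed sign, all of the latter among differences that were not called. All 9 that passed anew were PER3 values: 6 for siMLK4 with doxorubicin, 2 for siMLK4 with vehicle and 1 for the drug in siMLK4 cells. The replicate block ended the PER3 call with the drug in siNT cells and changed no other call of a member. Library totals, upper-quartile scaling, the minimum of 10 reads and limma-voom ended that PER3 call as well. The block gave 3854, 3937, 951 and 945 called genes in the 4 comparisons and 40 in the interaction. Cause was not tested for any of the changes below.

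With library totals, sign changed for CLOCK (between siRNAs, 0.09 with vehicle and 0.01 with doxorubicin), CRY1 (the same with vehicle, 0.0), PER1 (the same with vehicle, 0.09, and the drug in siMLK4 cells, 0.13), CRY2 (the drug in siNT cells, 0.15) and DBP (the drug, 0.1 in siNT and 0.07 in siMLK4 cells). Upper-quartile scaling gave 0.04 for CLOCK and 0.04 for PER1 (siMLK4 with vehicle), 0.05 for CRY2 and 0.01 for DBP (the drug in siNT cells). The DBP interaction was 0.01 with limma-voom and with both pseudocounts. Leaving out single libraries gave these ranges across 0. For the drug in siNT cells they were −0.07 to 0.15 for NPAS2 and −0.17 to 0.02 for DBP. For the drug in siMLK4 cells they were −0.09 to 0.14 for NPAS2, −0.12 to 0.12 for PER2, −0.05 to 0.13 for CRY2 and −0.24 to 0.09 for DBP. For siMLK4 with vehicle they were −0.24 to 0.1 for CLOCK and −0.08 to 0.01 for PER1. For siMLK4 with doxorubicin they were −0.01 to 0.35 for BMAL1, −0.02 to 0.17 for PER2 and −0.01 to 0.15 for NR1D1. In the interaction they were −0.17 to 0.17 for CLOCK, −0.15 to 0.11 for NPAS2, −0.15 to 0.33 for PER3, −0.01 to 0.18 for CRY2 and −0.15 to 0.18 for DBP.

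Fitting only the vehicle groups called 1 member, NPAS2, and 611 genes in place of 961. For siMLK4 with vehicle 1483 genes were called by limma-voom and 1613 and 1611 with pseudocounts of 1 and 8. With doxorubicin 1466 were called by limma-voom and 1484 with a pseudocount of 8, against 950. The interaction called 47 genes, 29 by limma-voom, and 0 to 37 without single libraries, with 0 when siMLK4 doxorubicin replicate 1 was left out. Ratio ranges without single libraries were 0.21 to 0.3 for CRY2/CRY1 and −0.41 to −0.26 for PER2/PER1 between siRNAs, and −0.04 to 0.09 for PER2/PER1 with the drug.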
